A study of Mus musculus with 6 samples.

Results

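The genes examined here are the replication-dependent histone genes, the clustered gene copies that supply the H1, H2A, H2B, H3 and H4 proteins packaged onto new DNA. They were chosen by name, as protein-coding genes whose symbols mark a gene of the *Hist1*, *Hist2*, *Hist3* or *Hist4* group, with more than 5 reads over all libraries. The rule found 60 of the 28157 genes tested, and every one of the 60 entered the test. They comprised 6 H1, 14 H2A, 17 H2B, 10 H3 and 13 H4 genes, of which 53 belong to the *Hist1* cluster on chromosome 13, 4 to *Hist2* on chromosome 3, 2 to *Hist3* on chromosome 11 and 1, *Hist4h4*, lies on chromosome 6. A further 7 protein-coding genes with such names (*Hist1h2aa*, *Hist2h2aa1*, *Hist2h2aa2*, *Hist2h2ab*, *Hist2h2bb*, *Hist2h3b* and *Hist2h3c1*) have no row in the table and were not analysed here.

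The samples were embryonic cardiac outflow tracts (OFTs) of mouse embryos at E13.5 (the letter stands for embryonic day), profiled by bulk RNA-Seq. There were 6 libraries of 3 pooled OFTs each, 3 labelled as *Notch1* heterozygous with a null *Nos3* (here, the mutant label) and 3 labelled wildtype for both genes. The mutations are carried by every cell of the embryo, and the dissected OFT holds several cell types, so fewer cells of a type and less RNA per cell cannot be told apart in these values. The libraries came from total RNA depleted of ribosomal RNA, and the study compared the groups to find transcripts altered before outflow malformations become visible.

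The libraries held 34729103 to 44387490 counts. *Notch1* was higher under the mutant label (5257 to 6199 counts) than under the wildtype label (2714 to 3661 counts), against the genotype named, whereas *Nos3* was lower (769 to 884 counts against 1412 to 1959), so groups are named here by their labels. Myocardial and endothelial markers were present in every library (for example 1435 to 3209 CPM of *Myh6* and 193 to 254 CPM of *Pecam1*). CPM are counts scaled to a common library size (TMM), and fold changes are log2 values of the mutant label against the wildtype label. A gene was called where edgeR's quasi-likelihood (QL) fit gave a Benjamini-Hochberg adjusted p, taken over the whole table, no greater than 0.05.

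Replication-dependent histone mRNAs are made in large amounts during S phase, when DNA is copied, and are destroyed when copying ends. They are the only known animal mRNAs whose normal 3′ end is not a poly(A) tail. The end is instead a short stem-loop just after the stop codon, bound by the stem-loop binding protein Slbp, and cleavage behind it involves the U7 small nuclear ribonucleoprotein. Transcription of the clusters is driven by Npat, a substrate of cyclin E and Cdk2. Some of the copies can also be read through to a poly(A) site further downstream, a form known from differentiated cells.

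The stem-loop was searched for in the annotated transcripts after the stop codon, because it is the feature that sets these mRNAs apart. A stem of 6 base pairs around a loop of 4 bases was found in 43 of the 60 genes, 22 to 55 bases after the stop codon (median 32). The search took a fixed letter pattern with every stem base paired. Near variants would be missed, and the forms found are alike partly by this choice. Of the 17 without a match, 13 had under 50 annotated bases of 3′ UTR, so that the annotated part may end before it. The commonest form was shared by 23 genes of the H1, H2A, H2B and H3 classes. A form with other stem bases was shared by 7 H4 genes, and the capitals mark the loop.
*Hist1h1c*, *Hist1h2bg*, *Hist1h3b*, *Hist3h2ba* and 19 others: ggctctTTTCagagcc
*Hist1h4c*, *Hist1h4d*, *Hist1h4f*, *Hist1h4h*, *Hist1h4m*, *Hist1h4n* and *Hist4h4*: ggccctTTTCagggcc
*Hist1h1t*, *Hist1h2bb*, *Hist1h2bk*, *Hist1h3c*, *Hist1h3e* and *Hist1h3f*: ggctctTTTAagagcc
*Hist1h4i* and *Hist2h4*: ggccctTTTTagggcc
*Hist1h4b* and *Hist1h4j*: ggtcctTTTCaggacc
The remaining 3 forms were found in 1 gene each. *Hist1h2bc* and *Hist2h2be*, which are among the 3 most abundant members, had no match in their annotated 3′ UTRs of 742 and 2192 bases. *Hist1h2bq* and *Hist1h2br* had none in theirs of 1608 and 1803 bases.

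The histone genes were low in all 6 libraries. Together the 60 genes made up 98.3, 126 and 103 CPM in wildtype-labelled replicates 1, 2 and 3, and 114, 99.8 and 89.1 CPM in mutant-labelled replicates 1, 2 and 3, or 0.0105% of all counts on average. In these and later sums and shares of the members, a read of near-identical copies may count more than once. Some copies had equal or nearly equal counts in every library. The 11 replication-independent histone variants tested, whose mRNAs mostly carry poly(A) tails and are made outside S phase as well, summed to 1066 to 1192 CPM in the same libraries. Among them *H1f0*, a linker histone, had 144 CPM per kb of exon and *H3f3b*, one of the H3.3 genes, had 98.2 CPM per kb. Per kb of annotated exon, the median of the 60 genes was 1.05 CPM, against 32.5 CPM for the variants and 10.2 CPM for 32 genes of DNA replication and S phase. For the 17138 protein-coding genes tested the median was 3.32 CPM per kb.

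**Figure D1:**
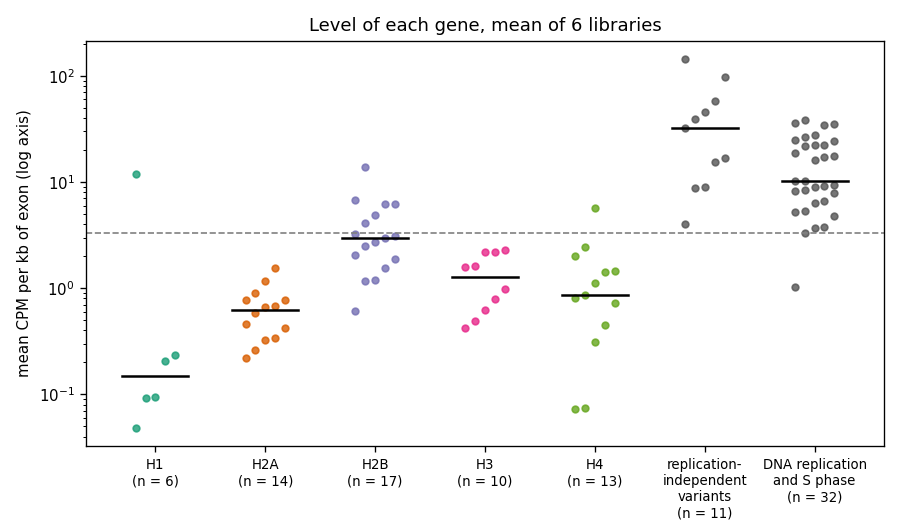
Mean CPM per kb of annotated exon over the 6 libraries (log axis) for each member by histone class, and for 2 lists of genes set beside them. Each point is 1 gene, the black bars are medians, and the dashed line is the median of all protein-coding genes tested, 3.32 CPM per kb. Only 8 of the 60 members lie above that line.

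A few members carried much of the signal. *Hist1h1c*, which encodes the linker histone H1.2, had 805, 874 and 656 counts under the wildtype label and 763, 673 and 610 under the mutant label. *Hist1h2bc* had 612, 824 and 559 counts against 615, 534 and 608, and *Hist2h2be* had 434, 369 and 307 against 294, 262 and 319. On mm10 these are *Hist1h1c* (ENSMUSG00000036181) at chr13:23738808-23740367, *Hist1h2bc* (ENSMUSG00000018102) at chr13:23684199-23692908 and *Hist2h2be* (ENSMUSG00000068854) at chr3:96221119-96223738, all on the plus strand. These 3 genes together made up 41.3% of the members' summed CPM, and 20 of the 60 reached a mean of 1 CPM.

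Levels per kb differed between the classes and within them. *Hist1h1c* stood at 12.0 CPM per kb, above 80% of the protein-coding genes tested, while the next H1 genes, *Hist1h1b* and *Hist1h1e*, stood at 0.237 and 0.204 CPM per kb. The remaining H1 genes, *Hist1h1d*, *Hist1h1a* and *Hist1h1t*, were between 0.0483 and 0.0942 CPM per kb. *Hist1h1t* encodes the testis linker histone and had 0 to 4 counts in each library.

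The core histone classes, which build the nucleosome particle, were ordered H2B, H3, H4 and H2A by their medians of 2.98, 1.28, 0.857 and 0.619 CPM per kb. The highest H2B genes were *Hist1h2bc* (13.9 CPM per kb), *Hist3h2ba* (6.71) and *Hist1h2bk* (6.23). The highest H4 genes were *Hist1h4i* (5.68 CPM per kb), *Hist1h4k* (2.45) and *Hist1h4h* (1.99). The H3 genes were more even, with *Hist1h3c* at 2.27 CPM per kb and *Hist1h3h* and *Hist1h3i* both at 2.18, and the lowest, *Hist2h3c2*, at 0.426. Among H2A genes the highest, *Hist1h2ag*, reached 1.54 CPM per kb, followed by *Hist3h2a* (1.16) and *Hist1h2ah* (0.907). The classes also differed in their annotation. An annotated gene on the other strand overlaps all 14 H2A members, over 138 to 144 bases, and 0 of the 17 H2B, 0 of the 10 H3 and 1 of the 13 H4 members, and none of these overlapping genes has a row in the table. The median share of a member's 50-base windows found in no other annotated gene's transcripts was 27% for H2A, 55.9% for H2B, 42.8% for H3 and 60.5% for H4. How reads in overlaps and repeated sequence were counted is not given in the sources used here, and the part of both in the order of the classes was not tested.

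These lengths depend on the annotation, which gives some members long 3′ ends. In 28 members the annotated 3′ UTR exceeded 100 bases, and these made up 78.4% of the members' summed CPM, while the 32 members with at most 100 bases made up 21.6%. Per kb the order of their medians was the opposite, 0.828 CPM for the former and 1.31 CPM for the latter. *Hist1h1c* is annotated for 840 bases beyond its stem-loop, *Hist1h4i* for 330 and *Hist1h2bk* for 30. *Hist1h1d* is annotated for 4884 and *Hist3h2a* for 1643. In mean plain CPM over all libraries *Hist1h1d* (0.699) was above *Hist1h1b* (0.176) and *Hist1h1e* (0.394). *Hist3h2a* (2.48) was likewise above *Hist1h2ag* (0.746), so both orders differ from those per kb.

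Short RNAs of some other families that carry no poly(A) tail were low as well. This set of 20 (the annotated small Cajal body RNAs and ribozymes, with *Rn7sk* and *Terc*) was chosen after the values were seen. Its members have 79 to 423 bases of annotated exon, and other untailed families, such as the small nucleolar RNAs, were not included. The set summed to 2.83 to 4.05 CPM per library. *Rn7sk*, an abundant nuclear RNA of most cells, had 31 to 82 counts, *Rpph1*, the RNA of ribonuclease P, had 10 to 29, and *Terc*, the telomerase RNA, had 2 to 13. The part that the capture of untailed RNA in these libraries had in the low histone levels was not tested. Nor was the part of RNA length in the low levels of this set.

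In 12 places an H2A gene and an H2B gene stand head to head on opposite strands with 175 to 305 bases between their annotated ends, and both partners are listed in 11 of them. The H2B gene was higher than its H2A partner in all 11 pairs and in each of the 6 libraries, per kb and also in plain CPM averaged over the libraries. The ratio of the per-kb levels ran from 2.04 for *Hist1h2bj* over *Hist1h2ag* to 62.6 for *Hist1h2bc* over *Hist1h2ac*. In plain CPM the ratio ran from 1.95 to 38.9, the largest being that of *Hist2h2be* over *Hist2h2ac*. These 11 pairs share libraries and in part reads, so the count is a description. In every pair an annotated gene on the other strand overlaps the H2A partner and none the H2B partner, and the part of that in the ratios was not tested.

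**Figure D2:**
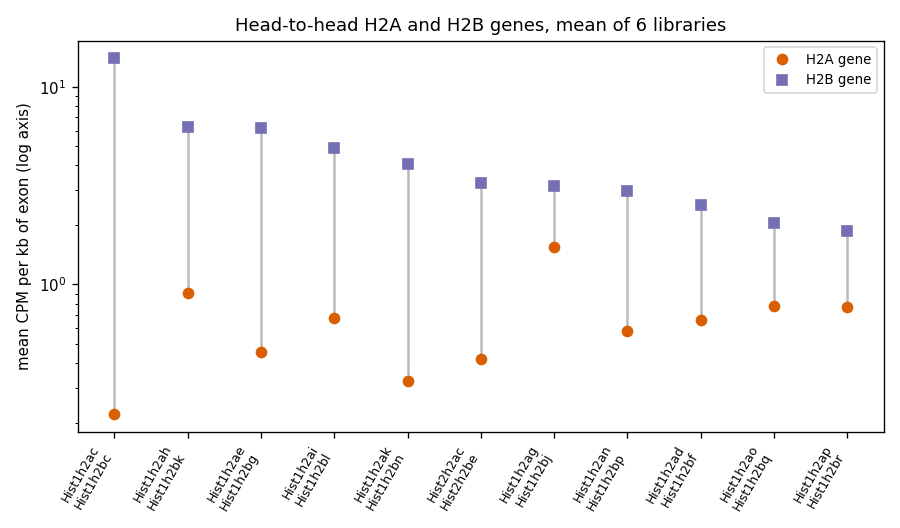
Mean CPM per kb of exon over 6 libraries (log axis) for the H2A gene (circle) and the H2B gene (square) of each of 11 head-to-head pairs, joined by a line. Every square lies above its circle, by 2.04 to 62.6 times.

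The DNA between the starts of the pairs with the greatest ratios in per-kb level and in CPM is shown because both partners are transcribed away from it, and that before *Hist1h1c* because it is the most abundant member. Sequences are those of RefSeq on GRCm38.p6. Capitals mark 4 motifs. The CCAAT box was searched for on either strand, and its other strand reads ATTGG. The TATA box was searched for as TATAAA on the strand of the H2A gene or of *Hist1h1c* alone. The octamer, known from H2B promoters, was searched for as ATTTGCAT on either strand. The motif known from H1 promoters was searched for as AAACACA on either strand, and none of these letter strings overlap in the stretches shown.
*Hist1h2ac* and *Hist1h2bc*, chr13:23683949-23684198, minus strand: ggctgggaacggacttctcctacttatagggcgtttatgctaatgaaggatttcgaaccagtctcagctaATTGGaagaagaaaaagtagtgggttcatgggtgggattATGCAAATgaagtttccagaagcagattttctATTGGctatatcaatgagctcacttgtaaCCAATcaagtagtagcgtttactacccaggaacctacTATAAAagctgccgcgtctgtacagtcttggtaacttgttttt
*Hist2h2ac* and *Hist2h2be*, chr3:96220881-96221118, minus strand: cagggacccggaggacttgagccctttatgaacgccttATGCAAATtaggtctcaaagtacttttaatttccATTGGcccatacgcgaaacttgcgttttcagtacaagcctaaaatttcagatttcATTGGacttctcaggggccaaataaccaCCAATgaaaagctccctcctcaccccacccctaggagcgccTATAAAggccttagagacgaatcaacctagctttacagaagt
*Hist1h1c*, chr13:23738557-23738807, plus strand: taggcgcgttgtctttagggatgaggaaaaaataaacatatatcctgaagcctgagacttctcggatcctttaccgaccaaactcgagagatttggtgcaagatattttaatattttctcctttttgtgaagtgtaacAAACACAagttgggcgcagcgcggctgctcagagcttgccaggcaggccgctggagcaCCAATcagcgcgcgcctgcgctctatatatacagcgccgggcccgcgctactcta
The stretches of both pairs hold 3 CCAAT motifs, 1 octamer and 1 TATAAA each.

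Promoter windows of 300 bases were found for 55 of the 60 members. CCAAT was present in every one of the 6 H1, 14 H2A, 15 H2B and 8 H3 windows and in 3 of 12 H4 windows, and in 37.9% of all 27025 promoters of that length in the table. TATAAA was present in 49.1% of the members' windows and 8.88% of all promoters. The octamer was found in 6 of 14 H2A and 6 of 15 H2B windows and in no other class (1.75% of all promoters). The H1 motif was found in 5 of the 6 H1 windows and in 3 windows of the other classes (7.14% of all promoters). Windows of head-to-head partners cover in part the same DNA, so the same match can count for an H2A and an H2B gene. A match describes letters in the window and is not a measured site.

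Many members are near-identical copies, and their counts are not separate measurements. For each member, the share of 50-base windows (the length of each read before trimming) found in no other annotated gene's transcripts was computed. The reads were sequenced in pairs, which these shares do not take into account. *Hist2h2be* (100%), *Hist1h1c* (91.5%), *Hist4h4* (91.5%), *Hist1h4d* (89.8%) and *Hist1h2ac* (85.9%) are largely their own, and 13 members exceeded 80%. *Hist1h2ao* and *Hist1h2ap*, which share over 93% of their windows, had the same 6 counts (20, 19, 5, 14, 21 and 10). *Hist1h2bq* and *Hist1h2br* differed by at most 2 counts in any library. *Hist1h2bc* was in between at 69.4%. Of the 7 genes with no row, 5 had no window of their own. *Hist1h2be* overlaps *Hist1h1e* on the same strand and *Hist3h2a* overlaps *Trim17*, so these values are uncertain too.

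No histone gene was called between the labels. Of the 60 members 0 passed the threshold (0.0213% of all genes tested did), and the smallest edgeR QL adjusted p was 0.194. At an unadjusted p under 0.05 there were 3, *Hist1h2ac*, *Hist1h4b* and *Hist2h2be*, or 5% of the members, where 16.1% of all genes tested lie under that limit. Without wildtype-labelled replicate 1, where 9.45% of all genes were called, the members called were still 0. DESeq2's Wald test called 2.66% of all genes, a share that also counts genes to which it gave no adjusted p. It called none of the 60 members, and gave an adjusted p to 30 of them, *Hist1h2ac* not included. The groups did not overlap for 6 members, 5 lower (*Hist3h2ba*, *Hist2h2be*, *Hist1h4b*, *Hist1h2ac* and *Hist1h2an*) and 1 higher (*Hist1h2bf*) under the mutant label, against 8.94% of all genes lower and 10.7% higher (19.6% in all).

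The median log2 fold change of the members was −0.053, beside 0.011 over all genes tested, and 24 members were above and 36 below 0. The sign of this median was not stable, since it became 0.043 once libraries were corrected for the GC content and length of genes, 0.21 without wildtype-labelled replicate 2 and 0.12 without mutant-labelled replicate 3. By class the medians were 0.23 for H1, 0.018 for H2A, −0.052 for H2B, −0.067 for H3 and −0.015 for H4, and with GC and length corrected they were 0.25, 0.076, 0.014, 0.0051 and 0.16. With each library left out in turn the medians ran from 0.034 to 0.31 for H1, −0.23 to 0.22 for H2A, −0.18 to 0.12 for H2B, −0.36 to 0.21 for H3 and −0.25 to 0.24 for H4, so the sign for each core class turned with the library left out. The lowest value of H1 and of H2A came without wildtype-labelled replicate 1, and that of H3 and H4 without mutant-labelled replicate 1. The highest value of each class came without wildtype-labelled replicate 2. The 0.23 of H1 comes from genes with few reads, and *Hist1h1c*, which holds nearly all H1 counts, had a log2 fold change of −0.16.

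The summed level of all 60 members differed by less than the spread between replicates. It was 109 ± 14.9 CPM (SD, n = 3) under the wildtype label and 101 ± 12.3 CPM (SD, n = 3) under the mutant label. H2B genes supplied 61.7 ± 9.64 CPM (SD, n = 3) and 56.8 ± 5.45 CPM (SD, n = 3) of these sums. Without the 3 most abundant members the sums were 63.1 ± 11.5 and 60.3 ± 11.7 CPM (SD, n = 3), and for the 32 members with short annotated 3′ UTRs they were 22.6 ± 6.04 and 22.7 ± 4.69 CPM (SD, n = 3). Other subsets differed by more relative to their spread. The 3 most abundant members summed to 41.6, 49.8 and 46.9 CPM under the wildtype label and to 41.8, 39.2 and 40.8 CPM under the mutant label. The 13 members with over 80% of windows of their own summed to 38.8, 39.7 and 36.0 CPM against 36.4, 31.9 and 30.9 CPM. The groups overlapped in both subsets, with means of 46.1 ± 4.13 and 40.6 ± 1.3 CPM (SD, n = 3) for the former and 38.2 ± 1.92 and 33 ± 2.93 CPM (SD, n = 3) for the latter.

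**Figure D3:**
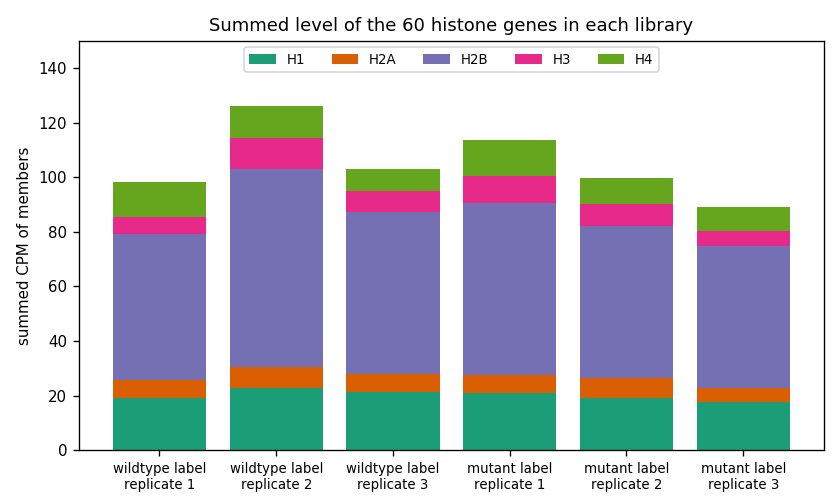
Summed CPM of the 60 members in each library, stacked by histone class from H1 at the bottom to H4 at the top. Wildtype-labelled replicate 2 has the highest sum, 126 CPM, and mutant-labelled replicate 3 the lowest, 89.1 CPM, so the labels overlap.

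Libraries of the same label differed more than the labels did. Of the 20 members with a mean of at least 1 CPM, 13 were highest in wildtype-labelled replicate 2 and 4 in mutant-labelled replicate 1, while 9 were lowest in mutant-labelled replicate 3 and 8 in wildtype-labelled replicate 1. The median deviation of these genes from their own mean, on the scale of log2(CPM + 0.5), was −0.18, 0.29 and −0.059 in wildtype-labelled replicates 1, 2 and 3. In mutant-labelled replicates 1, 2 and 3 it was 0.13, −0.0025 and −0.21. Over the 16655 genes tested with at least 1 CPM the same medians stayed between −0.015 and 0.015. In wildtype-labelled replicate 2, 13 of 14 H2A, 16 of 17 H2B and 10 of 10 H3 genes were above their own mean. Of the 16655 genes, 8666 were above theirs in that library. H4 genes did not follow, with 8 of 13 above their own mean and a median deviation of 0.038 there, and their highest median, 0.19, was in mutant-labelled replicate 1. Near-identical members may share reads, so the counts of members given here are not counts of separate measurements.

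Other genes did not all follow that order of the libraries. The 32 genes of DNA replication and S phase had median deviations of −0.0086, 0.084 and 0.19 in wildtype-labelled replicates 1, 2 and 3, and of −0.07, −0.12 and −0.04 in mutant-labelled replicates 1, 2 and 3. Wildtype-labelled replicate 2, where the histone sum was highest, also had the highest sums of several marker lists. These were 8 blood markers (11797 CPM, and 5304 to 10110 CPM elsewhere) and 6 liver markers (98.2 CPM, and 1.59 to 27.7 CPM elsewhere). They were also 6 epicardial markers (323 CPM, and 188 to 261 CPM elsewhere) and 6 macrophage markers (141 CPM, and 91.9 to 114 CPM elsewhere). Mutant-labelled replicate 1, with the second highest histone sum, had 6138 CPM of blood and 3.15 CPM of liver markers. It had 215 CPM of epicardial and 94.7 CPM of macrophage markers. The part of these markers in the histone levels was not tested.

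**Figure D4:**
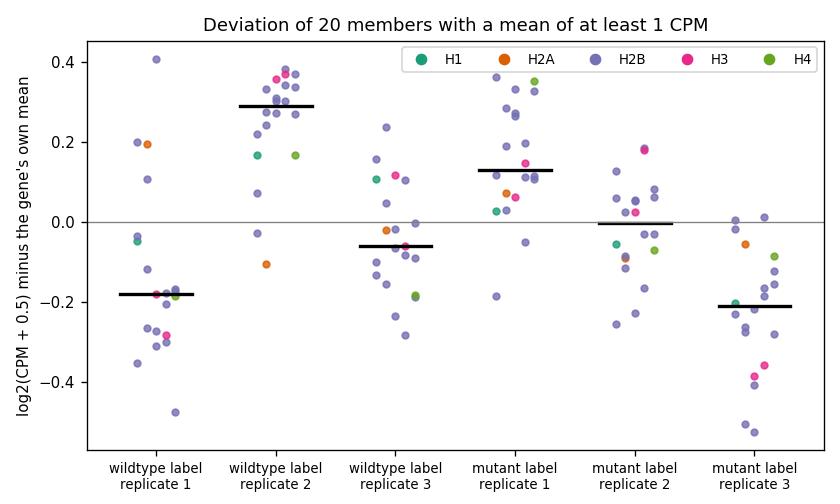
Deviation of each of 20 members from its own mean over the 6 libraries, in log2(CPM + 0.5), by library. Points are genes colored by class and bars are medians, which run from −0.21 in mutant-labelled replicate 3 to 0.29 in wildtype-labelled replicate 2.

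The abundant members bound the size of any difference most closely. *Hist1h1c* had 19.8 ± 1.52 CPM (SD, n = 3) under the wildtype label and 17.7 ± 1.46 CPM (SD, n = 3) under the mutant label, with overlapping groups. Its log2 fold change was −0.16 (95% interval −0.41 to 0.094, edgeR QL adjusted p = 0.52). *Hist1h2bc* had 16.9 ± 3.05 and 15.2 ± 0.945 CPM (SD, n = 3), a log2 fold change of −0.15 (95% interval −0.47 to 0.16) that became −0.022 without wildtype-labelled replicate 2 and −0.28 without replicate 1 of that label, and whose sign turned with GC and length correction (0.014). For 18 of the 20 members with a mean of at least 1 CPM the interval lay within a 2-fold change in either direction, and for 23 of all 60.

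The largest decreases among those 20 members were in *Hist3h2ba*, *Hist1h2bh*, *Hist2h2be*, *Hist1h3b* and *Hist1h1c*, none of which was called. *Hist3h2ba*, an H2B gene outside the large cluster, had 196, 203 and 158 counts under the wildtype label and 166, 139 and 102 under the mutant label. Scaled for library size the groups did not overlap, at 4.72 ± 0.272 and 3.52 ± 0.739 CPM (SD, n = 3), and its log2 fold change was −0.42 (95% interval −0.85 to 0.01, edgeR QL adjusted p = 0.322). *Hist2h2be* likewise had groups without overlap, at 9.37 ± 0.444 and 7.6 ± 0.767 CPM (SD, n = 3), and a log2 fold change of −0.30 (95% interval −0.60 to −0.00091, edgeR QL adjusted p = 0.31). Without mutant-labelled replicate 3 the value of *Hist3h2ba* was −0.26. *Hist1h2bh* had a log2 fold change of −0.39 with a standard error of 0.32. It ran from −0.72 without mutant-labelled replicate 1 to −0.18 without mutant-labelled replicate 3, and was −0.23 and −0.59 without wildtype-labelled replicates 1 and 3. *Hist1h3b* had one of −0.29 with a standard error of 0.34, which ran from −0.48 without wildtype-labelled replicate 1 to −0.084 without wildtype-labelled replicate 2, and was −0.098 without mutant-labelled replicate 3.

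The largest increases were smaller than their errors. *Hist1h2bl* had a log2 fold change of 0.22 with a standard error (SE) of 0.29, which became 0.036 and 0.40 without mutant-labelled replicates 1 and 3 and 0.061 and 0.45 without wildtype-labelled replicates 1 and 2. The log2 fold changes with their SE were 0.19 (0.28) for *Hist1h2be*, 0.15 (0.20) for *Hist1h4i*, 0.15 (0.26) for *Hist1h2bf* and 0.14 (0.32) for *Hist1h2bj*. *Hist1h4i*, the leading H4 gene, had 157, 193 and 115 counts under the wildtype label and 214, 145 and 144 under the mutant label, so its groups overlapped. *Hist1h2bf* had 1.12, 1.13 and 1.05 CPM against 1.30, 1.23 and 1.14 CPM, which do not overlap but lie close together.

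**Figure D5:**
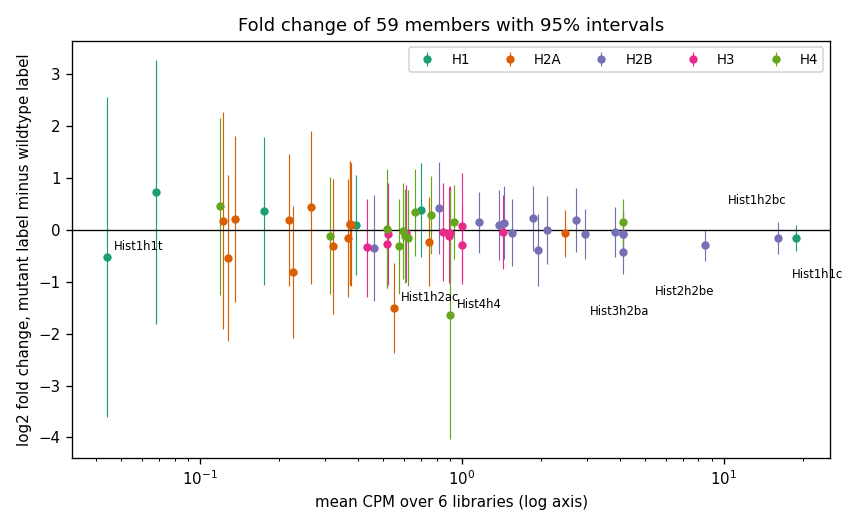
Log2 fold change of the mutant label against the wildtype label for 59 members, with approximate 95% intervals derived from edgeR's fit, against their mean CPM (log axis). *Hist1h4b*, which had 0 counts in every mutant-labelled library, is left out; the intervals narrow to the right and most contain 0.

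The next members average under 1 CPM and are described because of the values they showed. *Hist1h2ac* had 35, 37 and 25 counts under the wildtype label and 9, 14 and 10 under the mutant label, with no overlap. Its log2 fold change was −1.50 (SE 0.39, 95% interval −2.37 to −0.63), and its edgeR QL adjusted p = 0.194 did not pass. Over the alternatives its log2 fold change was between −1.73 and −1.35 and its adjusted p between 0.0552 and 0.642. DESeq2 gave it no adjusted p. It lies at chr13:23681467-23683948 on the minus strand and is annotated for 2010 bases beyond its stem-loop, with *Gm24991* on the same strand and *Gm44350* on the other strand overlapping it. Its head-to-head partner *Hist1h2bc* had a log2 fold change of −0.15, and the difference between the partners was not tested.

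*Hist4h4* had 173 counts in wildtype-labelled replicate 1 and 6, 1, 19, 16 and 16 in the other libraries. Its log2 fold change of −1.64 rested on that library and became 2.23 without it. *Hist1h4b* had 4, 1 and 2 counts under the wildtype label and 0 in each mutant-labelled library, mostly under the floor of 3 counts per library, so no fold change is given. *Hist1h2an* had 13, 10 and 11 counts against 8, 4 and 7, and a log2 fold change of −0.81 (SE 0.57). For the 40 members with a mean under 1 CPM the median standard error was 0.46. The largest absolute log2 fold change of the members with a mean of at least 1 CPM, 0.42, is smaller than that error. What size of change could have been detected was not tested.

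The genes that make, process and destroy histone mRNA were also measured, and edgeR called 0 of them (0.0213% of all genes). DESeq2's Wald test called 1 of 13 genes of transcription, 0 of 16 of processing and 0 of 9 of decay (2.66% of all genes). Without wildtype-labelled replicate 1, edgeR called 1, 2 and 2 of them (9.45% of all genes). Of 13 genes of histone transcription 3 had an unadjusted p under 0.05 (16.1% of all genes tested did). Their median log2 fold change over the 13 was −0.031. *Npat* was 37.6 ± 2.61 and 39.0 ± 1.08 CPM (SD, n = 3) under the wildtype and mutant labels, a log2 fold change of 0.053. *Ccne1*, which encodes cyclin E1, had 20.2, 20.5 and 27.1 CPM against 15.2, 14.8 and 16.8 CPM, without overlap (8.94% of all genes were lower without overlap). Its log2 fold change was −0.53 (SE 0.14, edgeR QL adjusted p = 0.188), and DESeq2 called it (adjusted p = 0.0297, range over the alternatives 0.00392 to 0.642). *Nfya*, a subunit of the factor that binds CCAAT, had a log2 fold change of 0.22 (edgeR QL adjusted p = 0.262). The genes of its other subunits, *Nfyb* and *Nfyc*, had negative values of −0.031 and −0.18 (edgeR QL adjusted p = 0.912 and 0.37).

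Of 16 genes of histone mRNA processing 4 had an unadjusted p under 0.05 (16.1% of all genes tested did), all with negative values. The median of the 16 was −0.079. *Slbp* itself had 41.0 ± 4.42 and 40.4 ± 4.09 CPM (SD, n = 3) and a log2 fold change of −0.022 (95% interval −0.27 to 0.23). The smallest p values belonged to *Snrpf* (−0.64) and *Snrpd3* (−0.24), which encode Sm proteins shared by many small nuclear ribonucleoproteins. Of 9 genes of histone mRNA decay 0 had an unadjusted p under 0.05 and the median was −0.029. The smallest p values there were those of *Xrn1*, an exonuclease (0.22), and *Lsm1*, a subunit of a decay complex (−0.16).

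Of 17 chaperone and assembly genes 15 had negative values (median −0.15), 4 had an unadjusted p under 0.05 (16.1% of all genes tested did) and edgeR called 0. *Asf1b*, which hands H3 and H4 to the assembly machinery, had 28.0, 32.3 and 36.0 CPM against 22.8, 21.5 and 25.6 CPM, without overlap (8.94% of all genes were lower without overlap). Its log2 fold change was −0.46 (SE 0.12, edgeR QL adjusted p = 0.194), and DESeq2 called it (adjusted p = 0.038, range over the alternatives 0.0054 to 0.642). *Hat1*, the acetyltransferase that marks new H4, had −0.32 (edgeR QL adjusted p = 0.279). Of the 11 replication-independent variants 7 had negative values, with a median of −0.16 and 0 under an unadjusted p of 0.05. That median was −0.07 with GC and length correction and 0.0097 without wildtype-labelled replicate 2. *H2afy*, a macroH2A gene, had 0.21 and *H3f3a* −0.20.

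Genes of the cell cycle stood beside the histone genes with lower values under the mutant label. Of 32 genes of DNA replication and S phase 30 had negative log2 fold changes, with a median of −0.17. Among the 32, 7 had an unadjusted p under 0.05 (16.1% of all genes tested did) and 0 were called. *Rrm2* (−0.49), a subunit of ribonucleotide reductase, had an edgeR QL adjusted p = 0.195. All 18 genes of G2 and mitosis had negative values, with a median of −0.26, 10 had an unadjusted p under 0.05 and 0 were called. *Aurka* (−0.35) and *Ccnb2* (−0.33), a mitotic kinase and a cyclin, had the smallest p values. DESeq2's Wald test called 2 of the 32, *Rrm2* among them, and 5 of the 18, *Aurka* and *Ccnb2* among them (2.66% of all genes). Without wildtype-labelled replicate 1 edgeR called 6 of the 32 and 8 of the 18 (9.45% of all genes). The medians of −0.17 and −0.26 lay below the −0.053 of the histone genes, and whether these lists differ from the histone genes was not tested. The 10 myocardial markers also had negative values (median −0.51, summed 27176 to 37805 CPM under the wildtype label and 19069 to 26657 CPM under the mutant label), as did the 8 blood markers (median −0.56). All 8 mesenchymal markers had positive values (median 0.58), with sums of 8241, 5534 and 4172 CPM under the wildtype label and 8937, 9741 and 7599 CPM under the mutant label. All 6 liver markers had negative values (median −3.39), with sums of 1.82 to 98.2 CPM against 1.59 to 5.82 CPM. The part of these markers in the cell-cycle values was not tested.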

How the data were processed

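Bulk RNA-Seq of 6 mouse OFT libraries was analysed. Reads were aligned by the authors to mm10 with TopHat2 2.1.0 and Bowtie2 and counted on exons with GenomicAlignments. The deposited values are raw counts per gene, without normalization. How reads with several alignments, overlapping genes or strand were treated is not given in the sources used here. Groups follow the labels. Titles and descriptions number wildtype replicates 2 and 3 in opposite ways.

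The quasi-likelihood test of edgeR 4.0.16 (R 4.3.3) was run after TMM scaling on genes with over 5 summed counts, with Benjamini-Hochberg adjustment, with DESeq2 1.42.0 and limma 3.58.1 as alternatives. The edgeR test gives no standard error, so it was derived as the absolute log2 fold change over the square root of the F statistic. Intervals use these approximate errors with a t quantile common to all genes. All errors cover the spread between these pooled libraries and counting only. Gene models are GENCODE M21, which holds 28723 of the 28777 listed identifiers. Of 188 genes on the lists 186 were tested. Promoters are from RefSeq (GRCm38.p6). On simulated counts of all 28157 genes edgeR recovered 179 of 200 changed genes. The simulation set the dispersion well below that fitted to these libraries and changed only genes above a minimum mean count, by 2-fold. It checks the code and does not measure sensitivity in these libraries or for the members.

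The members, lists and tests were chosen with earlier results of these data known. Genes are named when they are the 3 highest of a class per kb, called, or among the 5 largest increases or decreases of members that average 1 CPM or more, and on other lists *Slbp*, *Npat* and the 2 smallest p values. Further genes were picked for their role or value. A gene that this rule names is not reported here.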

Additional observations from a re-analysis of the deposited data

Results flagged for a closer look

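Reads were also counted on 3 histone pseudogenes that are outside the 60 members and their comparisons. *Hist3h2bb-ps* had 97 reads over the 6 libraries, *Hist1h2al* 61 and *Hist1h2aj* 49, each with at least 3 counts, the floor per library, in most libraries. *Hist3h2bb-ps* had 27, 13 and 9 counts under the wildtype label and 20, 19 and 9 under the mutant label. It is the gene that shares most with *Hist3h2ba*, 22.1% of whose 50-base windows occur in it.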

How the results depend on the processing

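In 16 alternative fits 0 of the members in the fit were called. The fits held all 60 members, except 59 without wildtype replicate 1 or 3 and 50 with filterByExpr, and DESeq2 gave 30 an adjusted p. An adjusted p of at most 0.01, or only members with a mean of at least 1 CPM, also gave 0, and an unadjusted p under 0.05 gave 3. With each library left out in turn 0 were called every time, and the members' median log2 fold change ran from −0.18 to 0.21, with the values without wildtype replicate 2 (0.21) and without mutant replicate 3 (0.12) moving by more than the spread between replicates. The log2 ratio of summed levels, −0.12, was −0.21 to 0.0015 with each library left out. Scaling by library size alone raised the median of all genes by about 0.1, and that of the members to 0.055. Directions turned for *Hist1h2bc* with GC and length correction (0.014, and 0.024 with the replicate block added), for *Hist1h2be* (−0.016) and *Hist1h2bj* (−0.023) without wildtype replicate 1, for *Hist1h2bj* (−0.00042) without wildtype replicate 3, for *Hist1h4i* (−0.025) without mutant replicate 1, and for *Hist4h4* with limma-voom (0.35) and without wildtype replicate 1 (2.23). With each library left out the ranges were −0.016 to 0.53 for *Hist1h2be*, −0.023 to 0.51 for *Hist1h2bj*, −0.025 to 0.30 for *Hist1h4i* and −2.19 to 2.23 for *Hist4h4*. The cause of the turn with limma-voom was not tested.

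With the replicate number as a block, 0 members were called and the median was −0.046. With GC and length correction added to the block, 0 were called and the median was 0.048. Over all genes the block raised the calls from 6 to 1577. Same-numbered libraries had correlations of 0.096, 0.159 and 0.42. For differently numbered libraries the correlation was 0.277 or lay between −0.441 and −0.00712. These values do not settle whether libraries of equal number belong together, and the numbers of wildtype replicates 2 and 3 are uncertain. The main fit therefore took no pairs. A block on the description numbers (added after the data were seen, median −0.047) called 0 members and 83 of all genes. Members with over 80% of windows of their own, also added afterwards and judged over annotated transcripts since a genome-wide count was not run, had a median of −0.015. Low counts limit most members: 40 of 60 had a mean under 1 CPM.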
